A study of Mus musculus with 8 samples.

Results

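The genes described here are 41 genes of glycolysis and the pentose phosphate pathway, with the transporters of glucose and lactate and the kinases that control pyruvate dehydrogenase. They were taken by gene name from the 29924 gene names on the arrays. A gene with several probes was followed by the brightest of them. Of the 41 genes, 38 were tested because the spots of their probe (more than 50% of them) exceeded background clearly in some cell type at d12 and at d25, and 36 did so on all 8 arrays. Hk3, Fbp1, and Pdk4 were not tested, and none of them exceeded 59 RU on any array.

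The arrays came from B6.Cg-Foxp3<tm1Mal> mice, in which cells expressing Foxp3 carry EGFP, aged 8 to 14 weeks and immunized s.c. with the protein antigen KLH (keyhole limpet hemocyanin) in alum. Naïve CD4 T (naïve T, GFP-PD1loGL7-), TFH (GFP-PD1hiGL7+), Treg (GFP+PD1loGL7-), and TFR cells (GFP+PD1hi, with or without GL7) were sorted from peripheral lymph nodes (pLN) at d12 and at d25, with pools of 8 to 15 mice of mixed sex and 25 ng of RNA per array. Each cell type was thus measured on 2 arrays, 1 per day, without a replicate within a day. All mice were immunized, so that naïve T and Treg cells are the PD1lo fractions of the same immunized nodes.

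Foxp3 and the follicular markers matched the sort. Foxp3 lay between 37266 and 49262 RU (relative units of normalized signal, floor 20) in Treg and TFR cells. In the other cells Foxp3 was at most at 358 RU. All 6 follicular markers were called higher in TFH and in TFR cells. Of the 5 Treg markers, Il2ra and Lrrc32 were also far higher in Treg than in TFH cells, but Ikzf2 and Nrp1 were not. Ikzf2 had 10506 and 10814 RU in TFH and 9925 and 11103 RU in Treg cells at d12 and d25. In naïve T cells it had 81 and 145 RU. Nrp1 had 1264 and 1133 RU in TFH and 1353 and 1253 RU in Treg cells. From naïve T to TFH cells, 2 of these 5 markers were called up and 1 down. Most cycling markers moved with the follicular state. Of 10, 7 were called higher in TFH than in naïve T cells and 9 in TFR than in Treg cells, compared to 20.9% and 18.7% of all genes. The summed signal of the 10 was 32380 to 34043 RU in naïve T, 51162 to 59927 RU in TFH, 40266 to 45265 RU in Treg, and 100984 to 119333 RU in TFR cells. Pcna, the brightest of them, did not rise in TFH cells, with 21357 and 24270 RU in naïve T and 20922 and 22820 RU in TFH cells. B cell markers had a summed signal of 15983 RU on the TFH array of d25 and 5463 to 10042 RU on the others, while Pax5 was at the floor on all arrays. The part of either in the differences below was not tested. All d12 arrays were on the same slide, whereas at d25 the Foxp3- and the Foxp3+ cells lay on separate slides. A difference between sorted populations cannot be told apart here into fewer expressing cells and less RNA per cell.

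Glycolysis converts glucose to pyruvate in the cytosol. Most of its steps can be catalyzed by several isoenzymes that differ in tissue distribution and regulation. Pyruvate is either reduced to lactate, which leaves the cell through monocarboxylate transporters, or enters the mitochondria through pyruvate dehydrogenase, which the Pdk kinases inhibit. The pentose phosphate pathway branches off at glucose phosphate and yields NADPH and ribose phosphate for nucleotide synthesis. TFH cells help B cells in germinal centers, and TFR cells are their regulatory counterpart expressing Foxp3. T cells raise glycolysis upon activation and proliferation, and the hypoxia-inducible factor HIF and Myc are known as transcriptional activators of many of these genes.

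Promoter sequences are shown for the 4 genes with the largest rise from naïve T to TFH cells, all of which were also called higher in TFR than in Treg cells. They are the 250 bases before the annotated start in RefSeq (build GRCm38.p6), written in the direction of transcription, with capitals marking each ACGTG or GCGTG, the core letters of hypoxia response elements, on either strand. The window of Aldoc is the first of its 2 listed starts (chr11:78322823-78323072, plus strand), and the others are single starts of Slc16a3 (chr11:120948817-120949066, plus strand), Tpi1 (chr6:124814159-124814408, minus strand), and Hk2 (chr6:82774455-82774704, minus strand).
Aldoc: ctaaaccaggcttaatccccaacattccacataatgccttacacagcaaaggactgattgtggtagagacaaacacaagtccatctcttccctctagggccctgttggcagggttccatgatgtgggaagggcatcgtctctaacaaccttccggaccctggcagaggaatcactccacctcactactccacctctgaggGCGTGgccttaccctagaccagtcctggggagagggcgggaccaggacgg
Slc16a3: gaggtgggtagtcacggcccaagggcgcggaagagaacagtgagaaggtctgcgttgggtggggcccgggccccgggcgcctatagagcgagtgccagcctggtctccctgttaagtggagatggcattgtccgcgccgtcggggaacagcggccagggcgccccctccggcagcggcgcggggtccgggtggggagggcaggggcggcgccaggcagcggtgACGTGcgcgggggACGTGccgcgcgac
Tpi1: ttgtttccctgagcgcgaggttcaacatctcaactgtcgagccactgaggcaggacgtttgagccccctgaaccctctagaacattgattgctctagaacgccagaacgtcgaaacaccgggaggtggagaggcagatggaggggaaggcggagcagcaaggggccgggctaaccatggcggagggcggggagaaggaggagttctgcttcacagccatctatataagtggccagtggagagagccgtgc
Hk2: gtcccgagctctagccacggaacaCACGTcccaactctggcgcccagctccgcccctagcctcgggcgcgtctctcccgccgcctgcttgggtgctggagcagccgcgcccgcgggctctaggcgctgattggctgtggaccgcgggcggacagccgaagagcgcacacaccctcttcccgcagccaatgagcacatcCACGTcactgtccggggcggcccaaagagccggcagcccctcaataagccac

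The window of Slc16a3 held the letters at 27 and at 14 bases before the start, that of Hk2 at 226 and 52 bases, and that of Aldoc at 50 bases. Tpi1 held none in this window. Of the 41 genes, 40 had at least 1 listed start, and 35 of these held ACGTG or GCGTG on either strand in at least 1 window. The share per gene was not computed over all genes, and a gene with several listed starts had several chances to hold the letters. Counted over windows, the letters were found in 45 of 60 (75%) of the members and in 38.6% of all 32851 windows. The E-box CACGTG, which contains ACGTG and therefore counts in both searches, was found in 6 of 60 windows (10%) of the members and in 6.02% of all windows. These are matches of letters, and base composition was not matched between the members and all windows. Windows of the same gene can overlap, as for Eno1, Aldoa, and Pfkm, so that the same site can count in more than 1 window.

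The first question was which steps changed when naïve T cells became TFH cells. Of the 38 genes tested, 17 were higher (44.7%) and 7 were lower (18.4%) in TFH cells at an adjusted p below 0.05 (limma, Benjamini-Hochberg over 15764 genes). Of all genes tested, 20.9% were called higher and 25.6% were called lower. The median log2 difference was 0.20 for the members and -0.07 for all genes. From aldolase to pyruvate kinase, 9 of 11 genes rose in TFH cells and 2 were lower, namely the enolases Eno1 and Eno3. Neither Slc2a1 nor Slc2a3 rose. TFH cells also had more mRNA for Slc16a3, Hk2, and Pfkp and less for Slc2a3, Eno3, and Pdk1. Of these 24 differences, 18 were called under all alternatives of processing in which they were tested, apart from a fold threshold, and between 18 and 22 members were called when any of the 8 arrays was left out, with 22 for the TFH array of d25. The 6 calls that were lost somewhere, with their highest adjusted p, were Ldha (0.849), Pfkfb2 (0.127), Bpgm (0.111), Slc16a1 (0.109), Pdha1 (0.0795), and Eno2 (0.0681).

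From Treg to TFR cells, 17 of the 38 genes were higher (44.7%) and 5 were lower (13.2%), compared to 18.7% and 20.9% of all genes. The median was 0.29 for the members and -0.08 for all genes. The cell types of this comparison share no array with those of TFH versus naïve T cells. The calls of both still rest on a common error per gene from all 8 arrays, so they are not independent. Of the members, 13 were higher in both comparisons (76.5% of each list), and 4 were lower in both (57.1% of the TFH list and 80.0% of the TFR list). Over all genes tested, the shares were 64.2% of the TFH and 71.8% of the TFR list for the higher genes and 56.0% and 68.5% for the lower genes. The count of 22 called genes rests on all 4 arrays of the comparison, since it fell to 10 or 9 without the TFR array of d12 or d25 and to 12 or 11 without the Treg array of d12 or d25. Called under all alternatives without a fold threshold were 9 of them, namely Pfkl, Aldoc, Tpi1, Gapdh, Pgam1, Pkm, Pdk1, Pdk3, and Slc16a3.

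**Figure D1:**
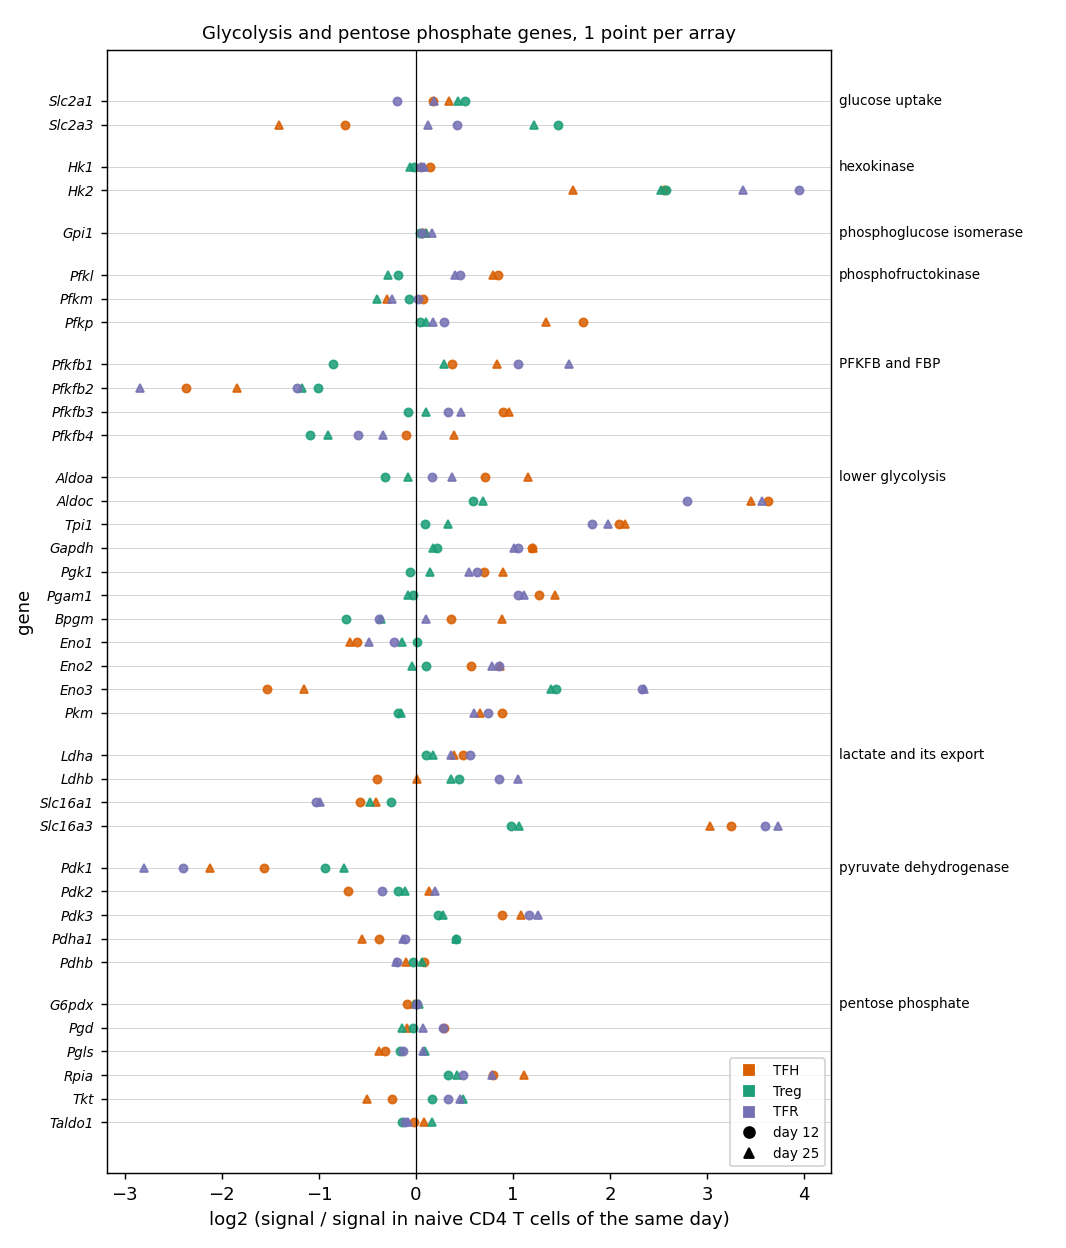
Signal of the 38 tested genes on each TFH, Treg, and TFR array, as log2 ratio to the naïve T array of the same day, grouped by step. Circles are d12 and triangles d25. Aldoc, Tpi1, Gapdh, Pgam1, and Slc16a3 lie to the right for TFH and TFR on both days, Pdk1 lies to the left, and Eno3 lies left of 0 for TFH and right of 0 for Treg and TFR. Hk2 was well above background on 1 of the 2 naïve T arrays.

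Glucose enters T cells mainly through the facilitative transporters Slc2a1 (GLUT1) and Slc2a3 (GLUT3), the latter of high affinity. Slc2a3 (probe on chr6:122678075-122678134, build NCBI37) had 3205 and 4048 RU in naïve T cells at d12 and d25, 1924 and 1522 RU in TFH, 8820 and 9389 RU in Treg, and 4295 and 4419 RU in TFR cells. The order was Treg, TFR, naïve T, and TFH cells, and no neighbours overlapped. The log2 difference was -1.07 ± 0.17 (SE, n = 2 arrays per cell type) from naïve T to TFH cells (adjusted p = 0.00752) and -1.06 ± 0.17 from Treg to TFR cells (adjusted p = 0.0101). Treg cells exceeded naïve T cells by 1.34 ± 0.17 (adjusted p = 0.0146). Slc2a1 ranged from 10470 to 16942 RU over all arrays. It had a TFR minus Treg difference of -0.47 ± 0.13 (adjusted p = 0.0469), a call that was lost under most alternatives and reached an adjusted p of 0.228 without the Treg array of d12.

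Hexokinases trap glucose in the cell as glucose phosphate. Hk2, the isoenzyme of activated and growing cells (probe on chr6:82675056-82675115), had 68 and 79 RU in naïve T cells, 401 and 242 RU in TFH, 405 and 454 RU in Treg, and 1045 and 817 RU in TFR cells. The level was lowest in naïve T cells, highest in TFR cells, and did not overlap between any of the cell types, although TFH and Treg cells were nearly level at d12. It rose by 2.08 ± 0.26 from naïve T to TFH cells (adjusted p = 0.00362), by 2.54 ± 0.26 from naïve T to Treg cells (adjusted p = 0.00777), and by 1.11 ± 0.26 from Treg to TFR cells (adjusted p = 0.0282). Hk2 was well above background on 1 of the 2 naïve T arrays, and with normexp background correction the first 2 differences were 1.10 and 1.40. The last of these calls was lost without the TFR array of d12 (adjusted p = 0.159). Hk1, the widely expressed isoenzyme, stayed between 343663 and 384041 RU for its brightest probe, and no difference was called. This constancy depended on the processing. Over the alternatives, the TFH minus naïve T difference of Hk1 ranged from -0.76 to 0.14. For Treg minus naïve T cells the range was -0.48 to 0.02. Its other probes, of 37759 to 52488 and 654 to 812 RU, gave TFH minus naïve T differences of 0.42 and -0.16, compared to 0.09 for the brightest.

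Gpi1, the isomerase of glucose phosphate, stands where the pentose phosphate pathway branches off. Its probe (chr7:34987178-34987237) had 110057 and 108712 RU in naïve T, 115139 and 116682 RU in TFH, 113243 and 116884 RU in Treg, and 115226 and 122149 RU in TFR cells. All arrays lay within a narrow range, and the largest of the 4 differences between cell types was 0.08 ± 0.08, with no call. All 3 of its probes gave follicular differences between 0.04 and 0.11.

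Phosphofructokinase commits sugar to glycolysis, and its muscle (Pfkm), liver (Pfkl), and platelet (Pfkp) isoforms behaved differently. Pfkp (probe on chr13:6581718-6583872) had 1843 and 1983 RU in naïve T, 6060 and 5017 RU in TFH, 1895 and 2126 RU in Treg, and 2248 and 2245 RU in TFR cells. The TFH arrays stood apart from the other 6, which spanned 1843 to 2248 RU. Pfkp rose by 1.53 ± 0.13 in TFH cells (adjusted p = 0.00121). In TFR cells the difference to Treg cells was 0.16 ± 0.13 (adjusted p = 0.372). The difference between both follicular changes was tested itself and amounted to -1.37 ± 0.19 (adjusted p = 0.0206), with -1.47 at d12 and -1.26 at d25. It was called in 10 of 18 alternatives, a fold threshold left aside. It was not called with the slide as a block (adjusted p = 0.0514) or without a filter on dim genes. The call was also lost without any single naïve T, Treg, or TFR array. A second, dimmer probe of Pfkp gave 2.15 for TFH and 0.35 for TFR cells.

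Pfkl rose in both follicular cell types, by 0.82 ± 0.08 in TFH (adjusted p = 0.00171) and by 0.67 ± 0.08 in TFR cells (adjusted p = 0.00455). Pfkm remained between 1627 and 2156 RU and was called in no comparison. The ratio of Pfkp to Pfkm on the same array therefore moved by 1.64 from naïve T to TFH cells on both days and by 0.15 and -0.08 from Treg to TFR cells.

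The Pfkfb enzymes make and degrade the bisphosphate that activates phosphofructokinase. Pfkfb3, the form with the highest kinase over phosphatase activity, rose by 0.93 ± 0.09 in TFH cells (adjusted p = 0.00163) and by 0.39 ± 0.09 in TFR cells (adjusted p = 0.0262). The TFR call was lost when all probes were averaged (adjusted p = 0.18). A second probe, well above background on 4 arrays, gave 0.49 in TFH and 0.46 in TFR cells. Pfkfb4 was lower in Treg than in naïve T cells by -1.0 ± 0.14 (adjusted p = 0.0166) and higher in TFR than in Treg cells by 0.53 ± 0.14 (adjusted p = 0.0347), whereas its TFH minus naïve T difference was 0.15 ± 0.14.

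Pfkfb1, known from liver and muscle (probe on chrX:147078320-147078379), had 247 and 164 RU in naïve T, 319 and 293 RU in TFH, 137 and 200 RU in Treg, and 511 and 488 RU in TFR cells. Both TFR arrays were highest, and naïve T and Treg cells overlapped. It rose by 1.59 ± 0.27 from Treg to TFR cells (adjusted p = 0.011), and the call was lost without the TFR array of d12 (adjusted p = 0.0773). Pfkfb2, known from heart (probe on chr1:132586122-132586181), had 103 and 144 RU in naïve T, 20 and 40 RU in TFH, 51 and 64 RU in Treg, and 44 and 20 RU in TFR cells. It was not well above background on any TFH array, and the level in naïve T cells was at least 3.08-fold higher than in TFH cells (adjusted p = 0.0255, the mean over 2 arrays against the lowest signal well above background). The call was lost in 6 of 17 alternatives, with an adjusted p of 0.127 without a filter on dim genes, 0.123 without the TFH array of d12, and 0.125 without the naïve T array of d25. With normexp the fitted difference was -0.76, smaller than this bound.

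Aldolase splits the sugar bisphosphate, and Aldoc is the form best known from brain. Aldoc (probe on chr11:78140198-78140257) had 859 and 700 RU in naïve T, 10585 and 7647 RU in TFH, 1295 and 1130 RU in Treg, and 5968 and 8261 RU in TFR cells. TFH and TFR cells overlapped and lay far above both progenitors, which did not overlap. It had the largest rise of all 38 genes in TFH cells, 3.54 ± 0.24 (adjusted p = 0.000626), and rose by 2.54 ± 0.24 in TFR cells (adjusted p = 0.00263). Aldoa, the common form, rose by 0.93 ± 0.13 in TFH cells (adjusted p = 0.00452) and by 0.47 ± 0.13 in TFR cells (adjusted p = 0.0404). The ratio of Aldoc to Aldoa gained 2.91 and 2.30 on the log2 scale in TFH cells at d12 and d25, and 1.72 and 2.42 in TFR cells.

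Tpi1, which interconverts the triose phosphates (probe on chr6:124760947-124761006), had 15160 and 14199 RU in naïve T, 64629 and 63304 RU in TFH, 16219 and 17816 RU in Treg, and 53365 and 55903 RU in TFR cells. The 4 cell types were ordered TFH, TFR, Treg, and naïve T without overlap, although neither TFR and TFH (adjusted p = 0.157) nor Treg and naïve T cells (adjusted p = 0.239) were called different. Tpi1 rose by 2.12 ± 0.10 in TFH cells (4.36-fold, adjusted p = 0.000239) and by 1.68 ± 0.10 in TFR cells (3.21-fold, adjusted p = 0.00081). Its second probe gave 1.93 and 1.59.

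Gapdh, which oxidizes glyceraldehyde phosphate and is widely used as a reference gene, had 204728 and 208645 RU in naïve T, 469481 and 480527 RU in TFH, 238471 and 235259 RU in Treg, and 424742 and 421741 RU in TFR cells. Its level was thus not constant, and the cell types did not overlap. It rose by 1.20 ± 0.08 in TFH cells (adjusted p = 0.000569) and by 0.84 ± 0.08 in TFR cells (adjusted p = 0.00258). The brightest probe is placed on chr7:59003199-59003257 in the files, but 7 of the 9 Gapdh probes are placed on chromosome 6. All 9 probes rose, by 1.10 to 1.38 in TFH and by 0.63 to 0.98 in TFR cells. When the arrays were scaled to the 75th percentile without quantile normalization, the rise of the brightest probe was 0.49 in TFH and 0.55 in TFR cells, still called (adjusted p = 0.0148 for each).

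Pgk1, which makes the first ATP of the lower pathway, rose by 0.80 ± 0.11 in TFH (adjusted p = 0.00469) and by 0.54 ± 0.11 in TFR cells (adjusted p = 0.0185). Pgam1, the phosphoglycerate mutase of most tissues (probe on chr19:41992898-41992957), had 27054 and 29186 RU in naïve T, 65006 and 78698 RU in TFH, 26579 and 27648 RU in Treg, and 56238 and 62967 RU in TFR cells. The progenitors overlapped with each other, and all 4 follicular arrays were higher. Pgam1 rose by 1.35 ± 0.09 in TFH cells (adjusted p = 0.000653) and by 1.13 ± 0.09 in TFR cells (adjusted p = 0.00188). Bpgm, the bisphosphoglycerate mutase best known from red blood cells, rose by 0.62 ± 0.15 in TFH cells (adjusted p = 0.0264), a call that was lost without the TFH array of d25 (adjusted p = 0.111). The summed signal of erythroid markers was 17743 and 19317 RU in naïve T and 11936 and 7008 RU in TFH cells, and its part in this difference was not tested.

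Enolase makes phosphoenolpyruvate, and its isoforms moved in opposite directions. Eno3, the muscle form (probe on chr11:70475953-70476012), had 2306 and 2568 RU in naïve T, 798 and 1154 RU in TFH, 6287 and 6721 RU in Treg, and 11577 and 13058 RU in TFR cells. Both Foxp3+ cell types exceeded both Foxp3- cell types, with TFR cells at the top and TFH cells at the bottom and no overlap. Eno3 fell by 1.34 on the log2 scale in TFH cells (SE 0.13, adjusted p = 0.00181) and rose by 0.92 ± 0.13 in TFR cells (adjusted p = 0.00754). The difference of both changes was 2.26 ± 0.19 (adjusted p = 0.00694), with 2.41 at d12 and 2.11 at d25. Over the alternatives this difference ranged from 2.07 to 2.46. It was not called without a filter on dim genes or without the TFR array of d12.

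Eno2, the neuronal form, rose by 0.71 ± 0.13 in TFH (adjusted p = 0.0119) and by 0.79 ± 0.13 in TFR cells (adjusted p = 0.0111), at low levels of 165 to 341 RU. Eno1, the common form, was lower in TFH than in naïve T cells by -0.64 ± 0.10 (adjusted p = 0.00656) and differed by -0.29 ± 0.10 between TFR and Treg cells (adjusted p = 0.0749). The arrays also carry probes for Eno1b, a copy of Eno1 nearly identical in sequence, whose brightest probe gave -0.62 ± 0.09 (adjusted p = 0.00585) and -0.28 ± 0.09 (adjusted p = 0.0637). The signals of both genes may be shared, and the value for Eno1 is therefore uncertain as to the gene. Pkm, pyruvate kinase, rose by 0.77 ± 0.10 in TFH (adjusted p = 0.00413) and by 0.84 ± 0.10 in TFR cells (adjusted p = 0.00473), with 0.77 and 0.78 for its second probe.

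**Figure D2:**
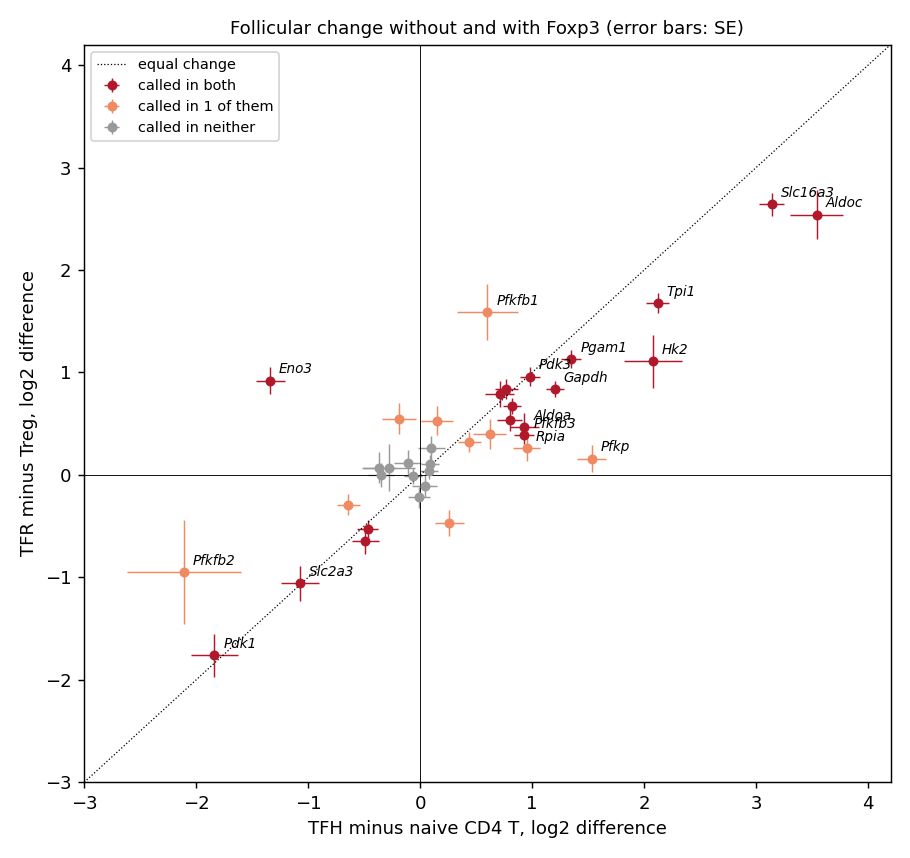
Log2 difference between TFH and naïve T cells (x axis) and between TFR and Treg cells (y axis) for the 38 tested genes, with standard errors. Red points were called in both comparisons, orange points in 1 of them, and grey points in neither. Slc16a3, Aldoc, and Tpi1 lie at the upper right, Pdk1 at the lower left, Pfkp near 0 on the y axis, and Eno3 in the opposite quadrant.

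Lactate leaves cells through Slc16a1 (MCT1) and Slc16a3 (MCT4), of which the latter is the exporter typical of highly glycolytic cells. Slc16a3 (probe on chr11:120820030-120820089) had 760 and 802 RU in naïve T, 7215 and 6557 RU in TFH, 1494 and 1673 RU in Treg, and 9174 and 10611 RU in TFR cells. No cell types overlapped, and TFR cells were highest. It rose by 3.14 ± 0.11 in TFH cells (8.81-fold, adjusted p = 0.000177) and by 2.64 ± 0.11 in TFR cells (6.24-fold, adjusted p = 0.000508), and a second probe gave 3.25 and 2.67. Treg cells already exceeded naïve T cells by 1.02 ± 0.11 (adjusted p = 0.0103).

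Slc16a1 was lower in TFH than in naïve T cells by -0.49 ± 0.12 (adjusted p = 0.0233) and differed by -0.65 ± 0.12 between TFR and Treg cells (adjusted p = 0.0131). The ratio of Slc16a3 to Slc16a1 gained 3.82 and 3.45 in TFH cells and 3.39 and 3.18 in TFR cells at d12 and d25. Of the lactate dehydrogenases, Ldha, the form favoured in glycolytic cells, had 167682 to 246606 RU for its brightest probe, which rose by 0.44 ± 0.10 in TFH cells (adjusted p = 0.0204). The direction depended on the probe, since the other probes of Ldha gave -0.27 each, and the mean of all probes was not called (adjusted p = 0.849). Scaling without quantile normalization gave -0.16 for the brightest probe (adjusted p = 0.412). Ldhb, the form of oxidative tissues, rose by 0.55 ± 0.15 from Treg to TFR cells (adjusted p = 0.0375), and its TFH minus naïve T difference was -0.19 ± 0.15 (adjusted p = 0.325).

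Pyruvate dehydrogenase is inhibited by 4 kinases, of which Pdk4 was at the floor of 20 RU on all arrays. Pdk1 (probe on chr2:71739688-71739747) had 8277 and 8913 RU in naïve T, 2797 and 2048 RU in TFH, 4322 and 5332 RU in Treg, and 1568 and 1282 RU in TFR cells. The order from naïve T over Treg and TFH to TFR cells was free of overlap, but neither the step from naïve T to Treg cells (adjusted p = 0.0756) nor that from TFH to TFR cells (adjusted p = 0.0622) was called. Pdk1, which is known as a HIF target in many cells, fell by 1.84 on the log2 scale in TFH cells (SE 0.21, adjusted p = 0.00257) and by 1.76 in TFR cells (SE 0.21, adjusted p = 0.00438).

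Pdk3 moved the other way, by 0.98 ± 0.09 in TFH (adjusted p = 0.0014) and by 0.96 ± 0.09 in TFR cells (adjusted p = 0.00257). The log2 ratio of Pdk1 to Pdk3 changed by -2.45 and -3.2 in TFH cells and by -2.4 and -3.04 in TFR cells at d12 and d25. Pdk2 overlapped among all neighbouring cell types and was not called. Pdha1, the catalytic subunit, was lower by -0.47 ± 0.09 in TFH (adjusted p = 0.0126) and by -0.53 ± 0.09 in TFR cells (adjusted p = 0.011). Pdhb was not called, but a dim probe of it, at 90 to 412 RU, gave -0.96 and -1.42.

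Of the pentose phosphate genes, 1 was called higher and 0 lower in TFH versus naïve T cells, and 0 were called in TFR versus Treg cells. Of all genes tested, 20.9% were higher and 25.6% lower in the first comparison, and 18.7% and 20.9% in the second. With 6 genes, a departure from these shares was not tested. Of 6 genes, all tested, Rpia, which makes ribose phosphate, rose in TFH cells by 0.95 ± 0.12 (adjusted p = 0.00328), and in TFR cells the difference was 0.26 ± 0.12 (adjusted p = 0.139). No other gene of the group was called in either follicular comparison, with estimates from -0.37 to 0.26. G6pdx, the entry enzyme, remained between 7111 and 8068 RU on all arrays, and its neighbouring cell types overlapped throughout. Pgd, Pgls, and Taldo1 were called in no comparison.

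TFR and TFH cells were compared next, to find which genes differ between follicular cells with and without Foxp3. Of the 38 genes, 6 were higher (15.8%) and 7 were lower (18.4%) in TFR cells, compared to 11.6% and 10.5% of all genes tested. The median was -0.02 for the members and for all genes. Higher in TFR cells were Eno3, Hk2, Slc2a3, Ldhb, Tkt, and Slc16a3, and lower were Pfkp, Bpgm, Aldoa, Pfkfb4, Pfkfb3, Slc16a1, and Pfkl. These calls share the TFH and the TFR arrays with the comparisons above. The count was 3 with the slide as a block, namely Eno3, Pfkp, and Ldhb, and it fell to 1 or 2 without the TFR array of d12 or d25 and to 4 without the TFH array of d25. With the Treg array of d12 or d25 left out, which enters only through the common error, 8 members were called.

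Eno3 exceeded TFH cells in TFR cells by 3.68 ± 0.13 (12.8-fold, adjusted p = 0.000525), with 3.86 at d12 within 1 slide and 3.5 at d25. It was the only one of the 13 calls that held under all alternatives without a fold threshold. Hk2 was higher by 1.57 ± 0.26 (adjusted p = 0.0174), Slc2a3 by 1.35 ± 0.17 (adjusted p = 0.00853), and Ldhb by 1.15 ± 0.15 (adjusted p = 0.0083). Without the TFR array of d12 the adjusted p was 0.131 for Hk2 and 0.0777 for Slc2a3, and without that of d25 it was 0.0735 for Ldhb. Tkt, the transketolase linking pentose phosphates to glycolysis, was higher by 0.77 ± 0.15 (adjusted p = 0.0286), with 30885 and 22576 RU in TFH and 46235 and 43654 RU in TFR cells.

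Pfkp was lower in TFR cells by -1.30 ± 0.13 (adjusted p = 0.0047). Smaller differences were found for Bpgm (-0.76 ± 0.15, adjusted p = 0.029), Aldoa (-0.66 ± 0.13, adjusted p = 0.0247), and Pfkl (-0.39 ± 0.08, adjusted p = 0.031). None of Tpi1, Gapdh, Pgk1, Pgam1, and Pkm was called between the follicular cell types, with estimates from -0.27 to -0.10. On the same arrays the ratio of Eno3 to Eno2 differed by 3.57 and 3.58, that of Hk2 to Hk1 by 1.47 and 1.72, that of Pfkp to Pfkl by -1.05 and -0.77, and that of Ldhb to Ldha by 1.19 and 1.07 between TFR and TFH cells at d12 and d25.

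**Figure D3:**
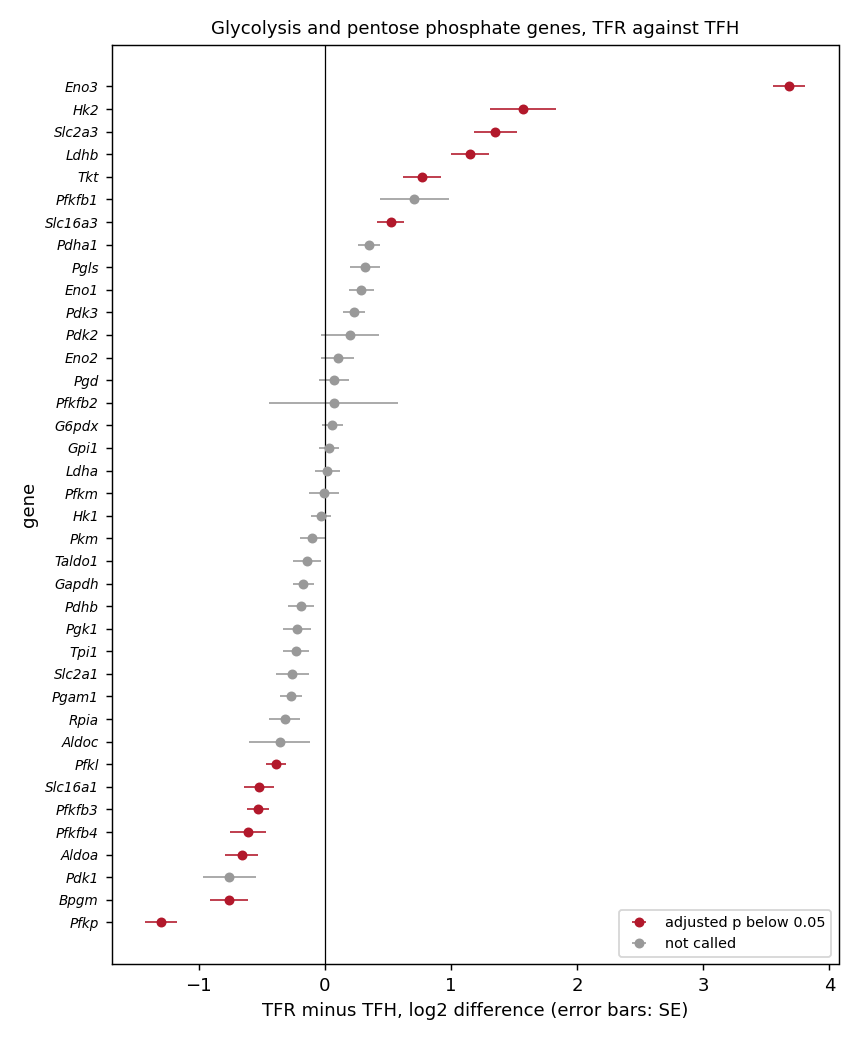
Log2 difference between TFR and TFH cells for the 38 tested genes, ordered by size, with standard errors. Red points have an adjusted p below 0.05. Eno3 at 3.68 stands apart from the other genes, which lie between -1.30 and 1.57.

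Before any follicular change, Treg cells differed from naïve T cells in 4 genes that were higher (10.5%, compared to 5.89% of all genes) and 1 that was lower (2.63%, compared to 3.98%). The higher genes were Hk2, Eno3, Slc2a3, and Slc16a3, and the lower gene was Pfkfb4. Eno3 was 2.67-fold higher in Treg than in naïve T cells (adjusted p = 0.00623). The count was 1 with the slide as a block (Eno3), 0 and 1 without the Treg array of d12 and d25, 1 and 3 without the naïve T array of d12 and d25, and 3 without either TFR array. The 4 genes higher in Treg than in naïve T cells were also among the 6 higher in TFR than in TFH cells. Of all genes higher in Treg cells, 54.4% were also higher in TFR versus TFH cells, which was 27.5% of that list.

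The follicular change itself differed between Foxp3+ and Foxp3- cells for 2 genes at an adjusted p below 0.05. Eno3 changed more positively in Foxp3+ cells (2.63% of members, compared to 4.03% of all genes) and Pfkp less (2.63% of members, compared to 4.46% of all genes). The next in size were Pfkfb2 (1.16 ± 0.72, adjusted p = 0.39), Aldoc (-1.0 ± 0.34, adjusted p = 0.157), and Pfkfb1 (0.99 ± 0.38, adjusted p = 0.193). With an array left out, 0 members were called for this difference without the TFR array of d12, and 1 without that of d25 or without any single naïve T or Treg array.

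**Figure D4:**
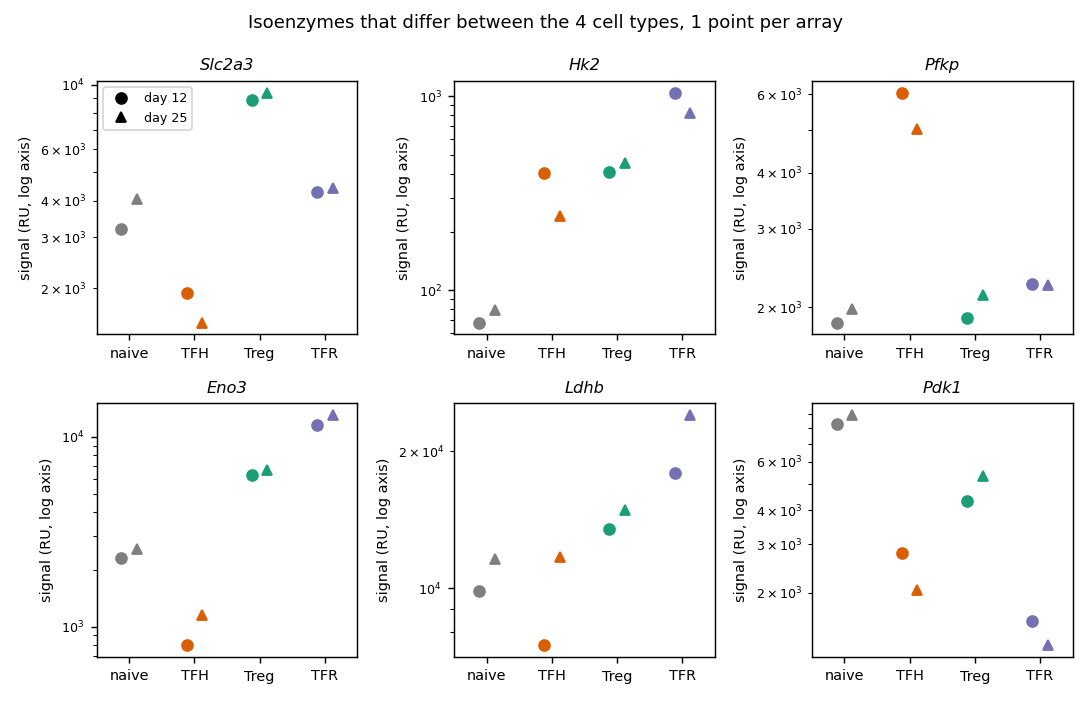
Signal of Slc2a3, Hk2, Pfkp, Eno3, Ldhb, and Pdk1 on all 8 arrays in RU on log axes, with circles for d12 and triangles for d25. Pfkp is higher on the TFH arrays than on the other 6, Hk2 and Eno3 are highest in TFR cells, and Pdk1 declines from naïve T over Treg and TFH to TFR cells.

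Between d25 and d12, no member was called by limma in either direction, compared to 0.019% of all genes higher and 0.0507% lower. At an unadjusted p below 0.05 there were 4 members, and no other test was run for the day. Estimates ranged from -0.32 (Pgls) to 0.36 (Ldhb). Within a cell type the median absolute log2 difference between the days was 0.13 in naïve T, 0.22 in TFH, 0.12 in Treg, and 0.155 in TFR cells. Day and slide cannot be told apart in this comparison.

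Further genes of sugar metabolism outside the 41 were examined in lists by function. The counts of these lists stand beside shares over all genes of 20.9% higher and 25.6% lower in TFH versus naïve T cells. For TFR versus Treg cells the shares were 18.7% and 20.9%. The lists are small, and no departure from these shares was tested. Of 17 other isoenzymes and transporters, 8 were tested, 4 were higher and 2 lower in TFH versus naïve T cells, and 4 were higher and 1 lower in TFR versus Treg cells. The largest rise was that of Pgam2, the muscle phosphoglycerate mutase, with 20 and 40 RU in naïve T, 9952 and 4819 RU in TFH, 20 and 30 RU in Treg, and 348 and 511 RU in TFR cells. Neither progenitor was well above background, so that TFH cells were at least 119-fold higher than naïve T cells (adjusted p = 0.000537) and TFR cells at least 7.95-fold higher than Treg cells (adjusted p = 0.00483). Its sister gene Pgam1, described above, rose by 1.35 and 1.13.

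Slc2a6, a hexose transporter of lysosomal membranes, had 199 and 149 RU in naïve T, 4111 and 8360 RU in TFH, 226 and 186 RU in Treg, and 3443 and 4646 RU in TFR cells. It rose by 5.09 ± 0.38 in TFH (adjusted p = 0.000791) and by 4.29 ± 0.38 in TFR cells (adjusted p = 0.00225), whereas Slc2a3 was lower in both. Slc2a8, another intracellular sugar transporter, rose by 1.34 ± 0.11 in TFH (adjusted p = 0.00105) and by 1.16 ± 0.11 in TFR cells (adjusted p = 0.00271). Adpgk, the ADP-dependent glucokinase, was lower by -0.99 ± 0.12 in TFH (adjusted p = 0.00361) and by -0.87 ± 0.12 in TFR cells (adjusted p = 0.00717). The lactate and pyruvate transporter Slc16a7 was lower by -1.03 ± 0.17 in TFH cells (adjusted p = 0.00815).

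In the other pentose phosphate genes (5 of 5 tested), 1 was higher and 2 were lower in TFH, and 1 was higher and 3 were lower in TFR cells. Tktl1, a transketolase-like gene, had 40 and 66 RU in naïve T, 149 and 269 RU in TFH, 275 and 488 RU in Treg, and 1013 and 1616 RU in TFR cells. It was not well above background in naïve T cells, and TFH cells exceeded them at least 2.98-fold (adjusted p = 0.000256), while TFR cells exceeded Treg cells by 1.80 ± 0.09 (adjusted p = 0.000642) and TFH cells by 2.68 ± 0.09 (adjusted p = 0.000518). Prps1, which activates ribose phosphate for nucleotide synthesis, was lower by -1.01 ± 0.10 in TFH (adjusted p = 0.00163) and by -0.74 ± 0.10 in TFR cells (adjusted p = 0.00582).

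Glycogen genes (10 of 10 tested) split into 2 higher and 3 lower in TFH and 1 higher and 1 lower in TFR cells. Pygm, the muscle glycogen phosphorylase, was at least 9.50-fold higher in naïve T than in TFH cells (adjusted p = 0.000423), and its TFR minus Treg difference was -2.21 ± 0.19 (adjusted p = 0.00214). Ugp2, which makes the sugar donor of glycogen, rose by 0.72 ± 0.11 in TFH cells (adjusted p = 0.00578). Pgm2 rose by 0.57 ± 0.10 in TFH (adjusted p = 0.00965) and by 0.70 ± 0.10 in TFR cells (adjusted p = 0.00706). Of the genes for gluconeogenesis, 3 of 6 were tested. Pcx, pyruvate carboxylase, rose by 0.64 ± 0.14 in TFH cells (adjusted p = 0.0197), and G6pc3, a glucose phosphatase, by 0.52 ± 0.10 in TFR cells (adjusted p = 0.014).

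Genes for the entry of pyruvate into mitochondria (7 of 7 tested) gave 1 higher and 2 lower in each follicular comparison. Mpc1, of the mitochondrial pyruvate carrier, rose by 0.34 ± 0.08 in TFH (adjusted p = 0.0233) and by 0.36 ± 0.08 in TFR cells (adjusted p = 0.0226). Pdp1, the phosphatase that reactivates pyruvate dehydrogenase, was lower by -0.97 ± 0.14 in TFH (adjusted p = 0.00572) and by -0.96 ± 0.14 in TFR cells (adjusted p = 0.00787). Of 19 tested genes of the TCA cycle, 1 was higher and 3 were lower in TFH, and 2 were higher and 2 lower in TFR cells, with medians of -0.05 and -0.03. Fh1, fumarase, rose by 0.60 ± 0.13 and 0.76 ± 0.13, and Suclg2, a subunit of succinyl-CoA ligase, was lower by -0.81 ± 0.16 and -0.73 ± 0.16 (adjusted p between 0.0107 and 0.0238 for these genes).

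Among 15 regulators, all tested, 5 were higher and 5 lower in TFH and 2 higher and 7 lower in TFR cells. The shares over all genes were 20.9% and 25.6% for TFH and 18.7% and 20.9% for TFR cells. Egln3, the prolyl hydroxylase that marks HIF for degradation and is itself a known HIF target, had 193 and 186 RU in naïve T, 12621 and 10681 RU in TFH, 278 and 305 RU in Treg, and 1436 and 1330 RU in TFR cells. Its rise of 5.94 ± 0.12 in TFH cells (adjusted p = 8.21e-05) exceeded that of 2.25 ± 0.12 in TFR cells (adjusted p = 0.000663), and the difference between them was -3.69 ± 0.16 (adjusted p = 0.0028). Hif1a mRNA, for the oxygen-sensitive subunit of HIF, ranged from 1932 to 4175 RU in the progenitors, from 16487 to 31150 RU in TFH, and reached 11743 RU in TFR cells. It rose by 3.40 ± 0.19 in TFH (adjusted p = 0.000382) and by 1.30 ± 0.19 in TFR cells (adjusted p = 0.00775).

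Myc had 8506 and 9142 RU in naïve T, 1663 and 1118 RU in TFH, 12894 and 14168 RU in Treg, and 5987 and 5071 RU in TFR cells. It was lower by -2.69 ± 0.20 in TFH (adjusted p = 0.000791) and by -1.29 ± 0.20 in TFR cells (adjusted p = 0.00883). Txnip, which restrains glucose uptake and is known to follow glucose supply, was lower by -1.76 ± 0.12 in TFH (adjusted p = 0.000693) and by -1.59 ± 0.12 in TFR cells (adjusted p = 0.00167).

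**Figure D5:**
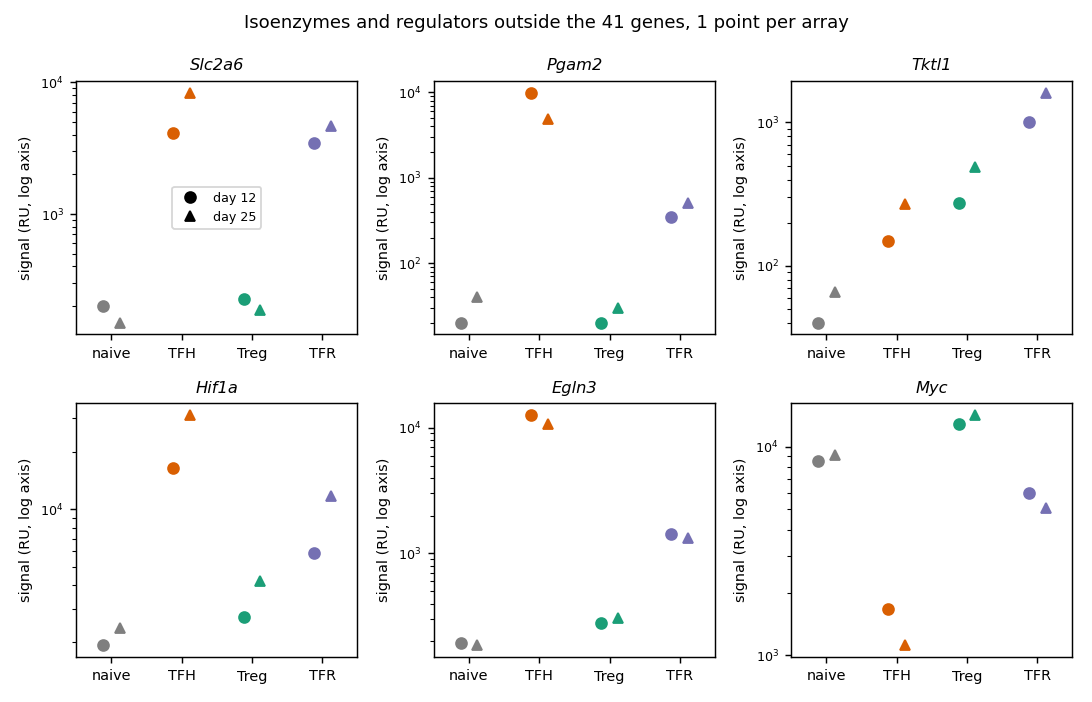
Signal of Slc2a6, Pgam2, Tktl1, Hif1a, Egln3, and Myc on all 8 arrays in RU on log axes, with circles for d12 and triangles for d25. Slc2a6 and Pgam2 are higher in both follicular cell types than in both progenitors, Egln3 and Hif1a are highest in TFH cells, Tktl1 is highest in TFR cells, and Myc is lowest in TFH cells. Pgam2 in naïve T and Treg cells was not well above background.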

How the data were processed

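RNA of the 4 sorted cell types from pLN at d12 and d25 was hybridized to 8 one-color Agilent arrays with 39429 probes of 4 spots each. The authors extracted the spot intensity with Agilent Feature Extraction 10.7.3.1, and the deposited intensity is the background-corrected green signal (gPS). The authors averaged spots by the geometric mean, applied quantile normalization, scaled the 75th percentile to 1500, and set a floor of 20. The same was done here, with spots left out for a flag of the software, for a distance beyond 1.42 times the interquartile range, or for a pixel coefficient of variation above 0.5, which kept 86.45% to 89.18% of the spots. The deposited table of normalized intensity served as an alternative. On the log2 scale it correlated with the values made here across probes (r = 0.9994 on each array) at a median offset of 0, but the brightest 1% of probes lay higher here by a median of 0.51, so that RU of very bright probes are not on the scale of the authors. On each array, 18261 to 19867 probes were well above background, no spot of a member's probe was saturated, and the number of arrays limits the precision.

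On the log2 scale, differences were fitted with limma 3.58.1 in R 4.3.3 (lmFit and eBayes, cell type and day as additive terms, 3 residual degrees of freedom, prior 1.89) and called where the Benjamini-Hochberg adjusted p was below 0.05 over the 15764 genes tested. With 2 arrays per cell type from separately sorted pools, p-values measure the spread between these arrays after the day term. Gene names and probe positions (NCBI37) are those of the files. Promoters are from RefSeq, and all members but Slc2a3 had an entry. The members, the lists, and the tests were chosen with earlier results of these data known. Members were given in full if called in TFH versus naïve CD4 T or TFR versus Treg with an absolute log2 difference of at least 1, or if alone in their step, and of each list the called gene with the largest difference in each direction of these comparisons was named. Hif1a, Eno1b, and Slc2a8 were added after their values were seen. Ratios of isoforms are descriptions without a test. The ANOVA of the methods needs replicates per cell type and day and was not run. A lower bound for a fold uses, for each array of the dim cell type, the higher of its own signal and the lowest signal well above background. The alternatives were other scaling and background correction, the deposited table, no exclusion of spots, other filters on dim genes, the mean of all probes, the slide as a block, no day term, an intensity trend of the variance, a log2 threshold of 1, and leaving out each array.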

Additional observations from a re-analysis of the deposited data

Results flagged for a closer look

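The follicular change differed between Foxp3+ and Foxp3- cells in a test of the difference itself for Eno3 (2.26, adjusted p = 0.00694) and Pfkp (-1.37, adjusted p = 0.0206), in limma over all genes tested. Eno3 was lower in TFH than in naïve T cells and higher in TFR than in Treg cells at both days. Pfkp was higher in TFH than in naïve T cells at both days, whereas its TFR minus Treg difference was 0.25 at d12 and 0.08 at d25. With the slide as a block Eno3 was still called, and Pfkp was not (adjusted p = 0.0514). Without a filter on dim genes neither was called. The call of Eno3 was also lost without the TFR array of d12, and that of Pfkp without any single naïve T, Treg, or TFR array. Groups of 2 arrays are too small for a search for outlying arrays.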

How the results depend on the processing

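With 2 arrays per cell type, the count of called members changed with the arrays used. Leaving out each array in turn gave 18 to 22 called members for TFH versus naïve T cells (24 with all arrays), 9 to 21 for TFR versus Treg (22), 1 to 9 for TFR versus TFH (13), 0 to 6 for Treg versus naïve T (5), and 0 to 2 for the difference of both follicular changes (2). For d25 versus d12 no member was called under any alternative that has a day term. Over all genes, normexp called 488 higher and 310 lower, compared to 3 and 8 without it. An intensity trend of the variance called 689 and 406. With only genes well above background on all arrays, 508 and 311 were called. Where an array is left out, the lone array of that cell type is assumed to vary like the others.

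A log2 threshold of 1 left 11, 8, and 5 members in TFH versus naïve T, TFR versus Treg, and TFR versus TFH cells. Without a filter on dim genes the counts were 13 for TFR versus Treg, 5 for TFR versus TFH, 2 for Treg versus naïve T, and 1 for the difference. This 1 call was neither Eno3 nor Pfkp, whose calls for the difference were both lost under this alternative. With the slide as a block they were 3 for TFR versus TFH, 1 for Treg versus naïve T, and 1 for the difference. With an intensity trend of the variance they were 8 for Treg versus naïve T and 7 for the difference. The other alternatives kept each count within 1.5 times. Of the 32 differences of the 12 genes given in full for a call, 16 kept their call under all alternatives, including the log2 threshold, and none was reversed. The cause of the lost calls was not tested.

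Each day holds 1 array per cell type, so that the day term is the block that pairs the arrays. Without this block, 23, 17, 9, 5, and 2 members were called in TFH versus naïve T, TFR versus Treg, TFR versus TFH, Treg versus naïve T, and the difference of both changes.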
